A study of Mus musculus with 15 samples.

Results

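The genes described here encode the pore-forming and accessory subunits of voltage-gated sodium and calcium channels and of all potassium channels. They were chosen by gene symbol alone (Scn followed by a number and a or b, Cacna, Cacnb, Cacng and Kcn, without the antisense RNA Kcnq1ot1), and 134 of the 23329 genes in the count tables met this rule. Of these, 100 reached more than 1 CPM (read counts scaled to a common library size) in at least 3 tumors and were tested, among 14880 genes tested in all. The data are RNA-seq read counts from 15 tumors, each from a different mouse. The lymphomas were cervical lymph node tumors of C57BL/6 mice, in which the immunoglobulin heavy chain enhancer (Eμ) drives c-Myc in B lineage cells: 4 EμMyc tumors and 3 EμMyc/Casp2-/- tumors that also lack caspase-2. The neuroblastomas were paraspinal thoracic tumors of mice on an Sv129/C57BL6 background, in which the tyrosine hydroxylase (Th) promoter drives MYCN in sympathetic neuroblasts: 4 Th-MYCN and 4 Th-MYCN/Casp2-/- tumors, picked by the authors for little blood vascularization. The EμMyc tumors arose at 13 to 19 weeks of age, the EμMyc/Casp2-/- tumors at 8 to 12, the Th-MYCN tumors at 10 to 21 and the Th-MYCN/Casp2-/- tumors at 15 to 24. Because the lymphoma ranges do not overlap, age at onset and genotype cannot be told apart there, and strain and tissue cannot be told apart from tumor type. Sex was uneven as well. All lymphomas except EuMycC2ko215 came from male mice. Of the neuroblastomas, MYCN235, MYCN391 and MYCNC2ko180 came from male mice and the others from female mice. Sex is thus partly confounded with tumor type, and among the lymphomas female sex is a single tumor.

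Excitable cells use these channels in sequence. Voltage-gated sodium channels (Nav) start the action potential, calcium channels (Cav) let in the calcium that triggers secretion and gene expression, and potassium channels (Kv, calcium-activated, inward rectifier and tandem-pore) repolarize the membrane and hold it at rest. Lymphocytes do not fire action potentials, but they rely on a small set of potassium channels, above all Kv1.3 (Kcna3) and the calcium-activated KCa3.1 (Kcnn4), to keep the membrane negative and so sustain calcium entry through Orai channels after antigen receptor engagement.

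Between 4940464 and 17638029 reads per library were assigned to genes on the strand used. The labels matched the marker genes: the summed level of 5 B cell markers was 1770 to 4270 CPM in the lymphomas and 1.25 to 10.3 CPM in the neuroblastomas, and that of 6 sympathetic neuroblast markers was 1.81 to 14.5 and 2120 to 4320 CPM. Casp2 itself, counted over the whole gene, was 125 to 203 CPM in EμMyc and 51.9 to 76.1 in EμMyc/Casp2-/- tumors. In the neuroblastomas it was 76.0 to 125 CPM in Th-MYCN and 39.6 to 80.2 in Th-MYCN/Casp2-/- tumors, so these ranges overlapped. Tumor EuMycC2ko215 stood apart from the other lymphomas: it was the shallowest library, the only one from a female mouse, and its 6 T cell markers summed to 993 CPM against 5.69 to 111 in the other 6. Calls of channel genes between genotypes that rest on this tumor are given with and without it below.

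**Figure D1:**
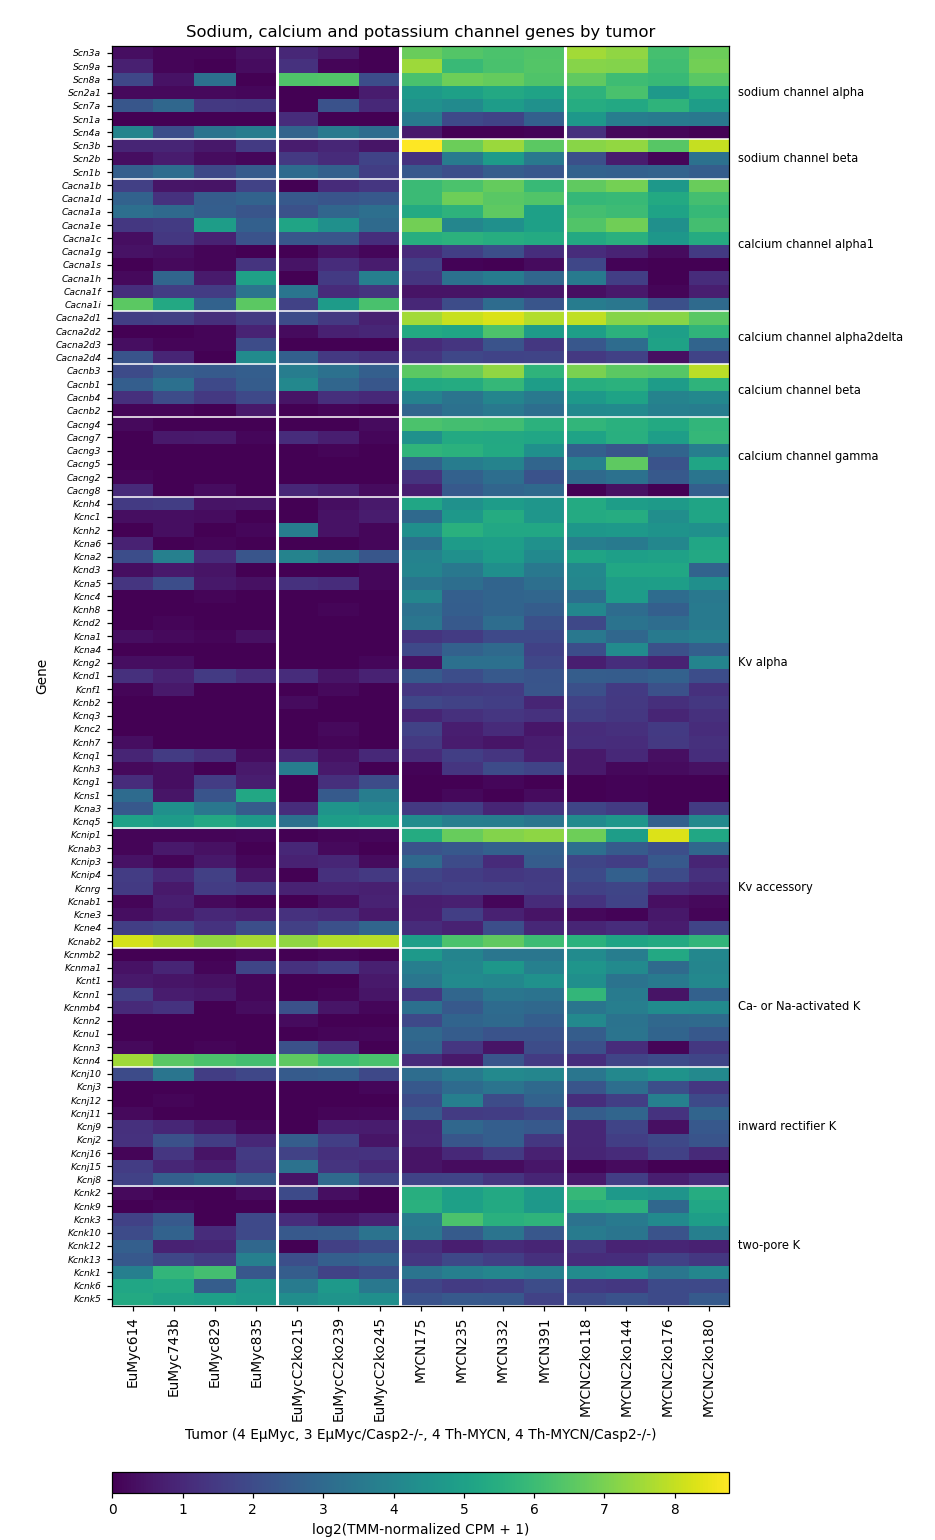
Heat map of 95 of the 100 tested channel genes (rows, grouped by subunit family) in the 15 tumors (columns, separated by group), colored by log2 of TMM-normalized CPM plus 1. Most rows are bright in the 8 neuroblastomas and dark in the 7 lymphomas, and a short list that includes Kcnab2, Kcnn4, Kcnk5, Kcnk6 and Cacna1i shows the opposite.

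To describe which channels each tumor type expressed, EμMyc was compared with Th-MYCN and EμMyc/Casp2-/- with Th-MYCN/Casp2-/-. Channel genes were mostly neuroblastoma genes. A differentially expressed gene (DEG) had a false discovery rate (FDR) under 0.05 in edgeR's likelihood ratio test and a change of more than 2-fold. In the comparison of EμMyc with Th-MYCN, 68 of the 100 were DEGs with higher levels in the neuroblastoma, where 28.5% of all tested genes were, and 16 were DEGs with higher levels in the lymphoma, where 18.9% of all genes were. Without Casp2 the counts were 64 (27.6% of all genes) and 16 (20.5%). The same direction in both comparisons was found for 61 members toward neuroblastoma (24.6% of all genes) and 12 toward lymphoma (15.8%). The median log2 fold change of the members, lymphoma over neuroblastoma, was -3.81 with Casp2 and -3.57 without it, against -0.036 and -0.049 over all tested genes. By the quasi-likelihood F-test (QLF) of edgeR, which allows for uncertainty in each gene's spread, 67 members were higher in neuroblastoma and 15 in lymphoma with Casp2 (27.8% and 18.3% of all genes), and 63 and 14 without it (26.6% and 19.7%). Every tumor of one type lay beyond every tumor of the other for 63 members toward neuroblastoma and 12 toward lymphoma with Casp2 (32.9% and 26.4% of all genes), and for 60 and 9 without it (31.2% and 23.6%). Summed over all 134 members, the level was 539 to 841 CPM in the 7 lymphomas and 1920 to 2780 CPM in the 8 neuroblastomas, with no overlap. In bulk tumors, more cells of a type and more RNA per cell cannot be told apart.

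The families differed in how one-sided they were. All 4 calcium channel beta genes were higher in the neuroblastomas in both comparisons, as were 6 of 6 tested gamma genes with Casp2 and 5 of 6 without it. The tested gamma genes are all also partners of AMPA-type glutamate receptors, and Cacng1 and Cacng6 were not tested. Of the 29 tested Kv alpha genes, 22 were higher in the neuroblastomas and 4 in the lymphomas in each comparison. For the calcium- or sodium-activated potassium channels the counts were 8 and 1 of 9 with Casp2 and 7 and 1 without it. Among the tandem-pore potassium channels calls went both ways: of 9 tested, 4 were higher in the neuroblastomas in each comparison, of which Kcnk2, Kcnk3 and Kcnk9 were in both, and 5 with Casp2 and 3 without it were higher in the lymphomas. Their median log2 fold change was 1.48 in the first comparison and -0.62 in the second. Median log2 fold changes in the families with genes at 0 reads in the lymphomas depend on how those genes are counted: for the gamma subunits the median was -8.55 as fitted and -7.18 with such genes at the bound that 3 reads over the group allow.

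Among the pore-forming sodium channels, the neuroblastomas had higher levels of forms known from brain and peripheral nerve. Scn3a (Nav1.3, chr2:65457118-65567627 in GRCm38, a form typical of developing neurons) was at 108, 85.4, 77.6 and 82.4 CPM in the Th-MYCN tumors and 186, 159, 71.7 and 110 CPM in the Th-MYCN/Casp2-/- tumors, and between 0 and 0.977 CPM in the 7 lymphomas. The groups were far apart, with log2 fold changes of -8.87 ± 0.60 (SE) with Casp2 and -8.25 ± 0.55 without it, lymphoma over neuroblastoma (LRT FDR 5.79e-65 and 8.03e-48, QLF FDR 3.84e-09 and 2.58e-08). Scn9a (Nav1.7, the main channel of sympathetic and pain-sensing neurons) was at 99.7 ± 53.6 (SD, n = 4) and 118 ± 35.4 CPM (n = 4) in the neuroblastoma groups and at most 1.37 CPM in any lymphoma. Scn2a1 (Nav1.2) was at 31.9 ± 5.57 and 48.0 ± 21.3 CPM in the neuroblastomas and 0 to 0.606 CPM in the lymphomas. The beta subunit Scn3b, which modulates the gating and surface delivery of the alpha subunits, ranged from 88.2 to 437 CPM in the neuroblastomas and from 0.404 to 1.81 CPM in the lymphomas.

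Genes of every calcium channel subunit class by symbol, pores and alpha2delta, beta and gamma subunits, were among those higher in the neuroblastomas. Cacna2d1 (chr5:15934691-16374511), the alpha2delta subunit that carries channels to the membrane and binds gabapentin, was at 186, 263, 306 and 214 CPM in Th-MYCN and at 243, 145, 149 and 91.6 CPM in Th-MYCN/Casp2-/- tumors. No lymphoma exceeded 3.13 CPM. Its log2 fold changes were -7.03 ± 0.35 and -6.49 ± 0.40 (LRT FDR 8.32e-61 and 2.17e-40). The N-type pore gene Cacna1b, the presynaptic channel of sympathetic neurons, was at 75.0 ± 19.5 and 88.0 ± 43.3 CPM in the neuroblastoma groups, and the L-type gene Cacna1d at 87.3 ± 21.1 and 56.6 ± 12.9 CPM. In the lymphomas Cacna1b reached at most 2.34 CPM and Cacna1d 5.95 CPM. The P/Q-type gene Cacna1a was 54.2 ± 28.5 and 56.0 ± 16.1 CPM in the neuroblastomas and 6.08 ± 1.84 and 6.07 ± 2.36 CPM in the lymphomas, and passed in both comparisons (log2 fold change -3.15 ± 0.38 and -3.19 ± 0.42). The second L-type gene, Cacna1c, had 44.3 ± 3.36 and 37.7 ± 9.54 CPM in the neuroblastomas, and Cacna2d2 45.0 ± 23.2 and 39.8 ± 12.0 CPM. Both were higher there than in the lymphomas in the 2 comparisons.

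Cacnb3, a cytoplasmic beta subunit that supports pore trafficking, was at 50.9 to 231 CPM in the neuroblastomas and at 3.06 to 12.1 CPM in the lymphomas. Cacng4, a gamma subunit that also acts as a partner of AMPA-type glutamate receptors, was at 39.1 to 77.8 CPM in every neuroblastoma and had 2 reads over the 4 EμMyc libraries and 2 over the 3 EμMyc/Casp2-/- libraries. The ratio of neuroblastoma to lymphoma was 1490 with Casp2 (95% exact counting interval 411 to 12300) and 660 without it (182 to 5450). Such intervals cover counting error only.

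Potassium channel genes that set firing threshold and resting potential in neurons were among those higher in the neuroblastomas. Kcnq3, a pore subunit of the M current that dampens repetitive firing in sympathetic neurons, was at 0.855 to 2.02 CPM in the neuroblastomas. It had no read in any lymphoma, so it was at least 19.4-fold higher in Th-MYCN than in EμMyc tumors and at least 13.6-fold higher in Th-MYCN/Casp2-/- than in EμMyc/Casp2-/- tumors, with 3 reads over the lymphoma group as the floor. Kcnip1, a calcium-binding accessory subunit of the Kv4 channels, was at 28.2 to 315 CPM in the neuroblastomas and at most 0.106 CPM in the lymphomas. Kcnip1 overlaps Kcnmb1 on the opposite strand, and reads of such pairs cannot be told apart in these libraries. Kcnmb1 itself had 20 reads in all 15 libraries, against 12764 for Kcnip1.

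The leak channel Kcnk9 (TASK-3) had 24.4 to 46.4 CPM in Th-MYCN tumors and 6.56 to 48.3 CPM in Th-MYCN/Casp2-/- tumors. It had 1 read in the 7 lymphomas. Its relative Kcnk3 (TASK-1) had 46.9 ± 27.2 and 16.6 ± 9.10 CPM in the neuroblastoma groups and at most 4.53 CPM in a lymphoma. Further members higher in the neuroblastomas in both comparisons were Kcnb2 (a slow delayed rectifier), Kcnma1 (the large-conductance calcium-activated channel, 16.4 ± 5.39 and 15.6 ± 6.46 CPM) and Kcnj11 (the pore of the ATP-sensitive channel, 2.74 ± 1.19 and 4.72 ± 2.25 CPM).

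**Figure D2:**
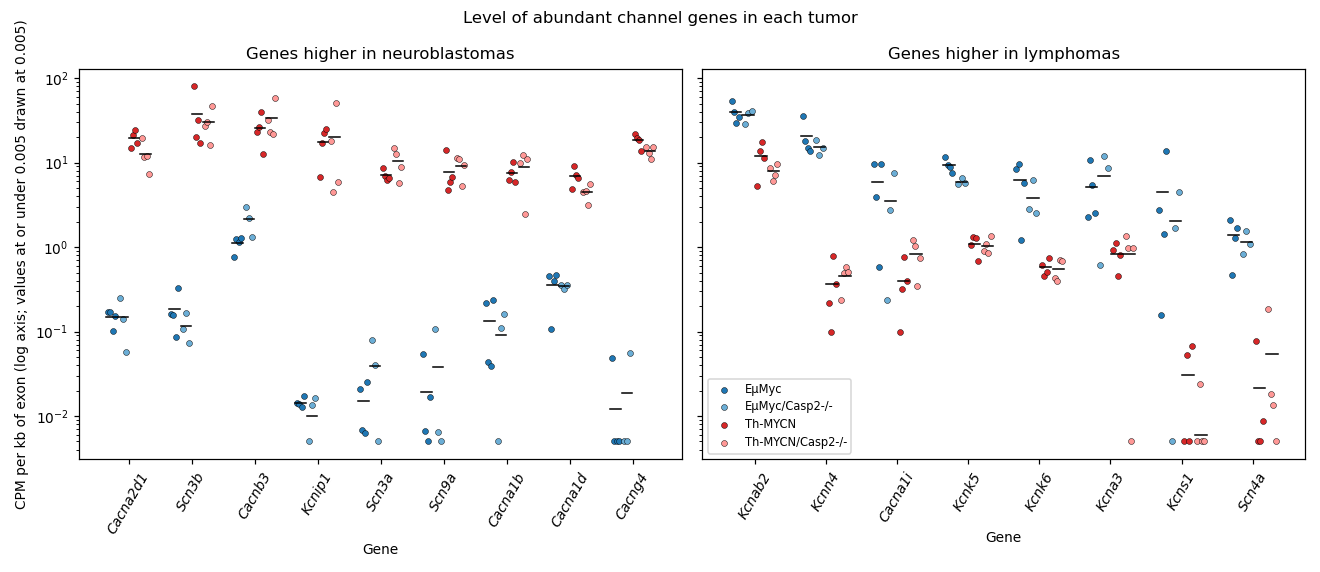
Level of 9 of the 10 channel genes with the most CPM among those higher in neuroblastomas (left) and of the 8 with the most CPM among those higher in lymphomas (right), as CPM per kb of annotated exon on a log axis. Points are tumors, colored by group, and bars are group means. On the left all 8 neuroblastomas lie above all 7 lymphomas for each gene. On the right the tumor types meet for Cacna1i, Kcna3 and Kcns1.

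The 12 channel genes higher in lymphomas in both comparisons were Cacna1f, Cacna1i, Kcna3, Kcnab2, Kcng1, Kcnj15, Kcnk13, Kcnk5, Kcnk6, Kcnn4, Kcns1 and Scn4a. Kcnn4 (KCa3.1, chr7:24370263-24386690), the calcium-activated potassium channel of lymphocytes, was at 182, 92.3, 76.9 and 70.2 CPM in EμMyc and 95.9, 63.3 and 75.5 CPM in EμMyc/Casp2-/- tumors. The neuroblastomas had 0.508 to 3.98 CPM. The groups were far apart, with log2 fold changes of 5.81 ± 0.47 and 5.07 ± 0.51 (LRT FDR 7.84e-24 and 1.19e-18, QLF FDR 2.45e-07 and 1.27e-06). Kcnab2, a beta subunit of Kv1 channels with an aldo-keto reductase fold, was at 297, 220, 164 and 194 CPM in EμMyc and 159, 217 and 229 CPM in EμMyc/Casp2-/- tumors. In the neuroblastomas it was at 29.8 to 98.9 CPM, and its log2 fold changes were 1.70 ± 0.31 and 2.20 ± 0.33.

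The tandem-pore channel genes Kcnk5 (TASK-2) and Kcnk6 (TWIK-2) separated the tumor types in every library. Kcnk5 was at 25.4 to 39.4 CPM in EμMyc and 18.8 to 22.3 CPM in EμMyc/Casp2-/- tumors, against 2.35 to 4.63 CPM in the neuroblastomas. Kcnk6 was at 5.04 to 39.7 and 10.4 to 25.5 CPM in the lymphoma groups and at 1.67 to 3.09 CPM in the neuroblastomas. Kcna3 (Kv1.3) was more uneven: the EμMyc tumors had 4.29, 20.4, 10.2 and 4.78 CPM, the EμMyc/Casp2-/- tumors 1.17, 22.5 and 16.4 CPM and the neuroblastomas 0 to 2.59 CPM. The lowest lymphoma value was in EuMycC2ko215, the shallowest library and the tumor with the highest T cell marker sum. The part of T cells or depth in the Kcna3 values was not tested. The difference of Kcna3 between the tumor types passed in both comparisons (log2 fold change 2.65 ± 0.83 and 3.07 ± 0.90), though not with sex as a covariate (FDR 0.0735 and 0.0763).

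Cacna1i, a T-type calcium channel pore, was at 94.1, 38.2, 5.75 and 94.1 CPM in EμMyc and 2.34, 26.9 and 74.9 CPM in EμMyc/Casp2-/- tumors, so single lymphomas reached down into the neuroblastoma range of 0.977 to 12.0 CPM. It passed the LRT in both comparisons (FDR 6.62e-05 and 0.0334) and the QLF test only with Casp2 (0.00228 and 0.0621). Without Casp2 the LRT call was lost when EuMycC2ko245 (0.83, FDR 0.463), MYCNC2ko144, MYCNC2ko176 or MYCNC2ko180 was left out, and with sex as a covariate (FDR 0.235). Kcns1, a silent Kv subunit that modulates Kv2 channels, was at 7.44, 0.428, 3.86 and 37.5 CPM in EμMyc, at 0, 4.59 and 12.2 CPM in EμMyc/Casp2-/- and at most 0.185 CPM in the neuroblastomas. Its call without Casp2 was lost with sex as a covariate (FDR 0.117). Scn4a, the sodium channel of skeletal muscle, was present in all lymphomas, at 14.6, 3.25, 9.06 and 12.0 and at 5.86, 11.0 and 7.67 CPM, and at 0 to 1.30 CPM in the neuroblastomas. The log2 fold changes were 5.89 ± 1.05 and 4.38 ± 1.07. Summed levels of 8 skeletal muscle markers were 20.1 to 60.6 CPM in the lymphomas. Tnni2 (10.6 to 39.5 CPM) and Mylpf (4.72 to 19.1 CPM) were the highest of the 8 in each lymphoma. The other 6 markers were at most 8.98 CPM in any lymphoma, and Ckm was at 0.417 to 5.56 CPM. In the neuroblastomas the sum reached 235 and 436 CPM in MYCN175 and MYCNC2ko118, with 6.30 to 11.7 in the other 6. Within the neuroblastomas Scn4a was highest in those 2 tumors, at 0.550 and 1.30 CPM. The muscle calcium channel pore Cacna1s was also highest there, at 2.08 and 2.66 CPM. It did not pass in either tumor type comparison. Its direction changed when single tumors were left out, and without MYCNC2ko118 it passed as higher in lymphoma (4.43, FDR 0.0315).

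Promoters of members that held a motif and were called in both tumor type comparisons are shown for sequence context. The reference promoters run from 250 bases before to 50 bases after each annotated RefSeq start (GRCm38.p6), and 99 of the 134 members had at least 1. They were searched for the canonical E-box CACGTG, the 6-base sequence bound by MYC family proteins with their partner MAX, which reads the same on both strands. It was present in 5.19% of the 135 member promoters and in 7.15% of all 32851 promoters of the same length. The 6 members with a match were Kcnab1, Kcne4, Kcnh4, Kcnj2, Kcnk5 and Kcnn4. Of these, Kcnk5 and Kcnn4 are among the 12 genes higher in lymphomas, of which 10 had a promoter to search. Kcnh4 is among the 61 higher in neuroblastomas, of which 41 had one. These 3 are printed with the E-box in capitals. A match is a description of the letters only.
Kcnn4 promoter (chr7:24370013-24370312, plus strand, E-box starting 133 bases before the start): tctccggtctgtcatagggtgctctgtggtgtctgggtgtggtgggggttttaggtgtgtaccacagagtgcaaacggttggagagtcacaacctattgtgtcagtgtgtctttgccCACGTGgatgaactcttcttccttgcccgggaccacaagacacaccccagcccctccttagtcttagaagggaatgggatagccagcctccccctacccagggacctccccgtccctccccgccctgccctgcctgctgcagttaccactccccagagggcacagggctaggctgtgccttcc
Kcnk5 promoter (chr14:20181733-20182032, minus strand, E-box starting 26 bases after the start): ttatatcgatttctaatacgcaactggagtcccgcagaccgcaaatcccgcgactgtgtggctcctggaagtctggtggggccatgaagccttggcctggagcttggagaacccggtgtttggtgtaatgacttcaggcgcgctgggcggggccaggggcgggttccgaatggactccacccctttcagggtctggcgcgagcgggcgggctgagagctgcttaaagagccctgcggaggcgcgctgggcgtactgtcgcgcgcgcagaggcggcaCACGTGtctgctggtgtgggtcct
Kcnh4 promoter (chr11:100759729-100760028, minus strand, E-box starting 87 bases before the start): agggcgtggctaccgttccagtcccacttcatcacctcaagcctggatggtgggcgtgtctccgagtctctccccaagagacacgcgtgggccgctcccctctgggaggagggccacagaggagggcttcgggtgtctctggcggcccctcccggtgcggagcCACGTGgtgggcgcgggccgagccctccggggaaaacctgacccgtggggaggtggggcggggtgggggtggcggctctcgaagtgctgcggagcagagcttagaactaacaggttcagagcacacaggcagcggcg

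Counted per kb of annotated exon, so that genes can be set beside each other, the channel genes with the highest levels differed between the tumor types. Averaged over the 7 lymphomas, Kcnab2 had 37.9 ± 8.35 CPM per kb (SD) and Kcnn4 18.3 ± 7.97, followed by Kcnk1 with 9.73 ± 12.6, Kcnk5 with 7.87 ± 2.20 and Kcna3 with 5.99 ± 4.46. The last 3 overlapped widely in their spread. The place of Kcnk1 came from the EμMyc tumors, with 15.8 ± 14.3 CPM per kb against 1.59 ± 0.63 in the EμMyc/Casp2-/- tumors, where Kcnk5 had 5.94 ± 0.54 and Kcna3 7.02 ± 5.78. Averaged over the 8 neuroblastomas, the leading genes were the accessory subunits Scn3b with 33.6 ± 21.2 CPM per kb, Cacnb3 with 29.5 ± 13.8, Kcnip1 with 18.8 ± 15.1, Cacna2d1 with 16.1 ± 5.69 and Cacng4 with 16.0 ± 3.70, and neighbors in this order overlapped. The pore-forming gene Scn3a had 8.84 ± 3.34 CPM per kb, at rank 10. Kcnab2, the first gene in the lymphomas, was at rank 7 in the neuroblastomas with 9.98 ± 4.20 CPM per kb, and Kcnk1 had 6.32 ± 1.59 there.

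**Figure D3:**
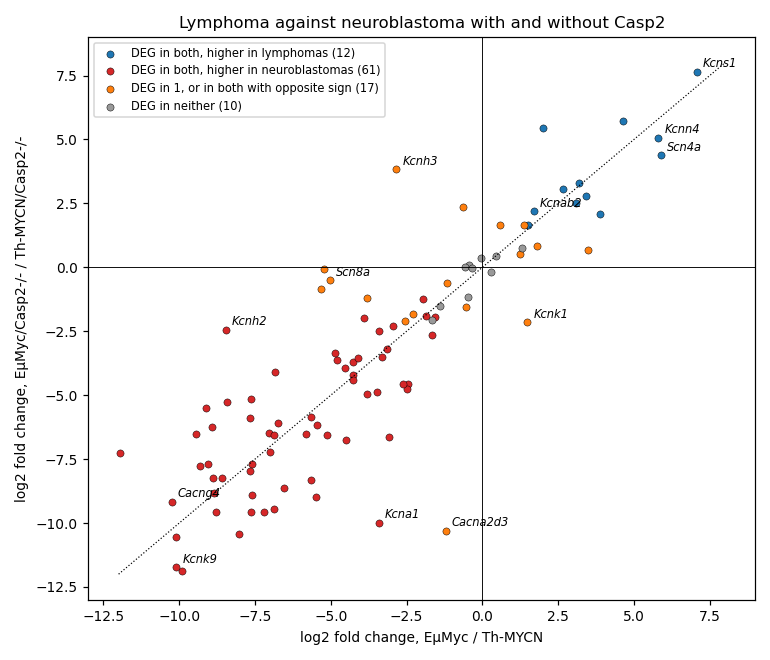
Log2 fold change, lymphoma over neuroblastoma, of the 100 tested channel genes with Casp2 (horizontal axis) and without it (vertical axis), with a dotted line of equality and colors for the calls. Most genes lie at lower left (61 DEGs in both) and 12 at upper right. Scn8a, Kcnh2, Kcnh3, Kcnk1 and Cacna2d3 lie far from the line. Kcnh3 was at 12.3 CPM in EuMycC2ko215 and at most 0.531 CPM in any other lymphoma. Values of genes with no read in a group are fitted values and not bounds.

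Some members were placed differently between the tumor types in the 2 comparisons. Kcnk1 (TWIK-1, a tandem-pore leak channel) was higher in EμMyc than in Th-MYCN tumors (log2 fold change 1.48 ± 0.59, LRT FDR 0.0249) and lower in EμMyc/Casp2-/- than in Th-MYCN/Casp2-/- tumors (-2.15 ± 0.66, LRT FDR 0.00468). The first of these calls was kept in only 3 of the 8 fits that left out 1 of its tumors, and was lost without EuMyc743b, EuMyc829, MYCN175, MYCN235 or MYCN391 (FDR 0.0514 to 0.18). Kcnh2, the hERG-type delayed rectifier, was higher in neuroblastomas in both comparisons (-8.47 ± 1.14 and -2.44 ± 0.97). Without Casp2 this call was kept in 1 of 7 fits that left out a tumor, that without EuMycC2ko215 (-6.53). The FDR of the other fits was up to 0.116. Kcnh3 was a DEG higher in lymphomas only in the comparison without Casp2. It was at 12.3 CPM in EuMycC2ko215, at 0.501 and 0 CPM in EuMycC2ko239 and EuMycC2ko245, and at 0.129 to 0.504 CPM in Th-MYCN/Casp2-/- tumors. Its fit without EuMycC2ko215 is not given here. The ATP-sensitive channel gene Kcnj8 (pore of the vascular form) and the T-type gene Cacna1h were not clearly placed: Kcnj8 passed only without Casp2 in the LRT (FDR 0.0396, QLF FDR 0.0639) and in 3 of 7 fits that left out a tumor, and Cacna1h ranged from 0 to 31.5 CPM in the lymphomas and 0 to 11.8 CPM in the neuroblastomas (FDR 0.804 and 0.814).

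To describe the channel genes that changed without Casp2 in neuroblastoma, Th-MYCN/Casp2-/- was compared with Th-MYCN. Cacng3 fell and Kcna1 rose. In all, 2 of 100 members were lower DEGs, where 0.625% of all tested genes were, and 1 was a higher DEG, where 0.188% of all genes were. By the QLF test no member passed (0.0269% of all genes lower and 0.00672% higher), while 15 members had an unadjusted LRT p under 0.05. The members' median log2 fold change was 0.18, against -0.0024 over all genes. None of the 8 tested sodium channel alpha and 3 beta genes passed.

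Cacng3 (chr7:122670492-122769393), a gamma subunit and AMPA receptor partner of forebrain neurons, was at 52.2, 47.4, 39.4 and 20.4 CPM in the Th-MYCN tumors and at 5.47, 3.98, 6.17 and 12.4 CPM in the Th-MYCN/Casp2-/- tumors. All 4 null tumors lay below all 4 with Casp2. The change was -2.51 ± 0.46 on the log2 scale (LRT FDR 0.000351, QLF FDR 0.130), and it stayed a DEG by the LRT when any 1 of the 8 tumors was left out (FDR up to 0.00963). The 5 other tested gamma genes did not pass, and Cacng4, the most abundant of them, had 65.8 ± 12.5 and 48.5 ± 7.26 CPM. Kcna1 (Kv1.1, chr6:126640397-126646384), an axonal low-threshold potassium channel, was at 1.47, 1.89, 2.83 and 2.84 CPM in Th-MYCN and at 10.3, 6.62, 10.9 and 12.8 CPM in Th-MYCN/Casp2-/- tumors, again with no overlap. It rose by 2.16 ± 0.43 on the log2 scale (LRT FDR 0.000836, QLF FDR 0.139) and stayed a DEG in all 8 fits without 1 tumor.

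Kcne3, an accessory subunit of Kv channels, had a log2 fold change of -2.35 ± 0.78 (FDR 0.114). Cacna2d3, an alpha2delta subunit, was at 1.10, 1.53, 3.69 and 1.67 against 4.18, 7.58, 32.4 and 6.09 CPM and did not pass (2.65 ± 0.95, FDR 0.283). It passed with only the 8 neuroblastomas in the fit (FDR 0.012).

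Groups did not overlap for 7 members that were higher and 3 that were lower in the null neuroblastomas, where 2.94% and 3.68% of all tested genes had no overlap. The 7, chosen for naming after their values were seen, were Cacna2d3, Cacnb2, Kcna1, Kcna2, Kcna5, Kcnmb4 and Scn7a, and the 3 included Cacng3 and Kcnj15. Of those named here only Cacng3 and Kcna1 passed the test. Kcna1, Kcna2 and Kcna5 are all Kv1 pores. Kcna2 was at 13.9 to 27.8 CPM in Th-MYCN and 30.3 to 38.7 CPM in null tumors, and Kcna5 at 6.06 to 9.71 and 15.5 to 29.3 CPM (FDR 0.911 and 0.285). The groups overlapped for the Kv1 genes Kcna6, which had 8.37 to 29.0 and 11.1 to 35.2 CPM, and Kcna4, which had 2.22 to 6.98 and 3.24 to 17.9 CPM.

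Marker levels also differed between these groups. The summed level of the 6 sympathetic neuroblast markers was 3560 to 4320 CPM in Th-MYCN and 2120 to 3320 CPM in null tumors, with no overlap, and none of the 6 was a DEG. Among them Th, the enzyme whose promoter drives the transgene, was at 314 to 1450 and 75.9 to 246 CPM (log2 fold change -2.55, LRT FDR 0.0546). The summed level of 4 endothelial markers was 46.1 to 69.7 CPM in Th-MYCN and 17.2 to 34.5 CPM in null tumors, where 2 of the 4 genes were lower DEGs. For 4 pericyte and smooth muscle markers it was 37.6 to 80.7 and 14.7 to 39.6 CPM, again with 2 lower DEGs. For 5 Schwann cell markers, of which 4 were tested and none was a DEG, it was 28.4 to 65.6 and 50.6 to 80.6 CPM. Their part in the changes of Cacng3 and Kcna1 was not tested.

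**Figure D4:**
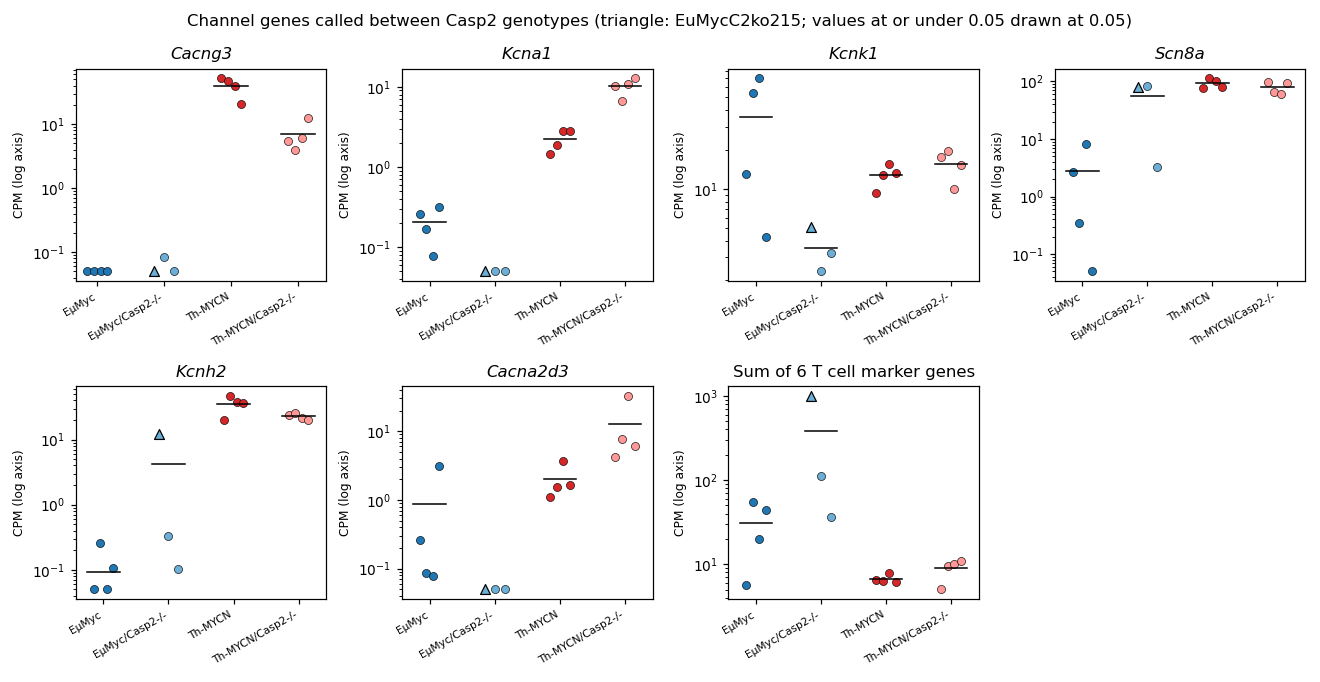
CPM in each tumor (log axis, bars are group means) of 6 channel genes called between Casp2 genotypes in one of the tumor types, and of the sum of 6 T cell markers. Null and wild type neuroblastomas do not overlap for Cacng3 and Kcna1. Among the EμMyc/Casp2-/- tumors Kcnh2 is high only in EuMycC2ko215 (triangle, 12.3 CPM), and Scn8a is high in 2 of 3.

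To describe the lymphomas without Casp2, EμMyc/Casp2-/- was compared with EμMyc. Kcnh2 and Scn8a were higher and Kcnk1 and Cacna2d3 lower. This is 2 of 100 members among higher DEGs, against 1.14% of all tested genes, and 2 among lower DEGs, against 0.302%. By the QLF test no member passed (0.0941% of all genes higher and 0.047% lower), and 20 members had an unadjusted LRT p under 0.05. In a fit of the 7 lymphomas alone Kcnk1 and Scn8a did not pass (FDR 0.0805 and 0.24), and Kcnh2 and Cacna2d3, each above 1 CPM in 1 lymphoma, were not tested. The members' median log2 fold change was -0.038, against -0.027 over all genes.

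Kcnk1 (chr8:125995170-126030685) was at 12.9, 54.2, 70.2 and 4.25 CPM in EμMyc and at 5.08, 2.34 and 3.23 CPM in EμMyc/Casp2-/- tumors. EuMyc743b and EuMyc829 were high, and EuMyc835 lay within the null range. The difference was -3.33 ± 0.66 on the log2 scale (LRT FDR 0.00194, QLF FDR 0.124), and the LRT call was kept when any 1 of the 7 lymphomas was left out, EuMycC2ko215 included (-3.64, FDR 0.011). Scn8a (Nav1.6, a sodium channel of axon initial segments that is also made in some immune cells) was at 2.62, 0.342, 8.35 and 0 CPM in EμMyc and at 80.5, 83.5 and 3.23 CPM in EμMyc/Casp2-/- tumors. EuMycC2ko215 and EuMycC2ko239 reached the neuroblastoma level of 59.6 to 114 CPM, and EuMycC2ko245 lay within the EμMyc range. On the log2 scale the change was 4.29 ± 0.98 (LRT FDR 0.00829, QLF FDR 0.140), and 3.95 without EuMycC2ko215, where it no longer passed (FDR 0.0771). Scn8a was therefore a DEG between the tumor types with Casp2 and not without it.

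The other 2 calls depended on single tumors. Kcnh2 was at 12.3 CPM in EuMycC2ko215 and at 0 to 0.334 CPM in the other 6 lymphomas. The log2 difference for Kcnh2, 5.39 ± 1.21 (LRT FDR 0.00171, QLF FDR 0.149), was 1.28 without that tumor (FDR 1.0) and did not pass with sex as a covariate (4.28, FDR 0.108). T cell markers summed to 993 CPM in that tumor, to 111 and 36.3 CPM in EuMycC2ko239 and EuMycC2ko245, and to 5.69 to 55.5 CPM in EμMyc tumors. By the LRT 4 of the 6 were DEGs between the lymphoma groups, and none of these passed the QLF test (FDR 0.14 to 0.262). No fit of the markers without EuMycC2ko215 is given here. The part of T cells or depth in the Kcnh2 value of EuMycC2ko215 was not tested. On the strand used, Cacna2d3 had no read in the 3 EμMyc/Casp2-/- tumors and 34 over the 4 EμMyc tumors. This is at least 6.77-fold lower with 3 reads over the null group as the floor. EuMyc835 alone had 3.08 CPM, the others 0.0787 to 0.262, and without it the gene did not pass (LRT FDR 0.390). It also did not pass without any 1 of the 3 null tumors (FDR 0.0832 to 0.211) or with sex as a covariate (FDR 0.0522). With reads on either strand the log2 fold change of Cacna2d3 was -3.54 instead of -6.45 and did not pass (LRT FDR 0.224). In DESeq2 it did not pass either (FDR 0.0586).

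Groups did not overlap for 3 members higher in the null lymphomas, Cacnb3 and Scn2b among them, and for 4 that were lower, Cacna2d3, Cacnb4, Kcna1 and Kcnk5, where 1.75% and 1.96% of all tested genes had no overlap. Kcnk5 had 31.7 ± 5.82 CPM in EμMyc (n = 4) and 20.2 ± 1.85 in EμMyc/Casp2-/- (n = 3), with a log2 fold change of -0.65 ± 0.31 (FDR 0.457). The lymphoid channel genes Kcnn4 and Kcna3 showed log2 fold changes of -0.43 ± 0.49 (FDR 0.847) and 0.43 ± 0.89 (FDR 0.935), and Kcnab2 of -0.12 ± 0.33 (FDR 0.959).

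The difference between the genotype effects of the 2 tumor types was tested as an interaction in the same model. Kcnh2 was a DEG with a more positive effect in lymphoma, where 0.726% of all tested genes were, and Cacna2d3, Kcna1 and Kcnk1 were DEGs with a more negative effect, where 0.188% of all genes were. None of them passed the QLF test, by which 0.0336% and 0.0202% of all genes were called (QLF FDR 0.0899 for Kcna1 and 0.318 for the others), and 23 members had an unadjusted LRT p under 0.05. Kcna1 rose in the null neuroblastomas and had 9 reads over the 4 EμMyc and none over the 3 EμMyc/Casp2-/- libraries (fitted interaction -6.57, LRT FDR 0.0097), and it was kept in all 15 fits that left out a tumor. Cacna2d3 moved up, without passing, in neuroblastoma and down in lymphoma (-9.10 as fitted, LRT FDR 0.00704, and 0.066 without EuMyc835). Fitted values of these 2 genes depend on groups with no read on the strand used and are no bounds. With reads on either strand the interactions were smaller, at -4.05 for Kcna1 (LRT FDR 0.0336) and -6.34 for Cacna2d3 (LRT FDR 0.046). Kcnk1 had log2 fold changes of 0.30 ± 0.60 in neuroblastoma and -3.33 in lymphoma, an interaction of -3.63 ± 0.89 (LRT FDR 0.0210) that was kept in 9 of 15 fits without 1 tumor, and lost without EuMyc829, EuMycC2ko239, MYCN235, MYCN391, MYCNC2ko118 or MYCNC2ko144 (FDR 0.0519 to 0.0653). The interaction of Kcnh2 (6.03 ± 1.50, LRT FDR 0.0133) was lost without EuMycC2ko215 (1.90, FDR 0.732) and with sex as a covariate (5.38, FDR 0.0514).

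Other genes of excitability were taken from lists by role. Their counts stand beside 28.5% of all tested genes higher in neuroblastomas with Casp2 and 27.6% without it, and 18.9% and 20.5% higher in lymphomas. All 7 genes of the other cation channels, among them the sodium leak channel Nalcn with Unc79 and Unc80 and the pacemaker channel Hcn3, were higher in the neuroblastomas in both comparisons, and Nalcn was at 65.9 and 90.0 CPM there against 0.0437 and 0.0278 CPM in the lymphoma groups (means). Among 18 tested channel partners, 11 were higher in neuroblastomas in each comparison, such as the ankyrins Ank2 and Ank3 that anchor sodium channels, and 3 with Casp2 and 2 without it were higher in lymphomas, among them Abcc9, the regulatory partner of Kcnj8. The calcium store genes were split. Of 17 genes of calcium release, entry and clearance, 6 with Casp2 and 7 without it were higher in lymphomas and 3 in each comparison in neuroblastomas. Those higher in lymphomas in both comparisons were Itpr2, Itpr3, Orai1, Orai2, Orai3 and Atp2a3, a calcium pump of blood cells with 786 and 633 CPM against 2.13 and 2.23 CPM (means). Of the sodium pump subunits, 4 of 6 were higher in neuroblastomas in each comparison and Atp1b3 in lymphomas. Rest, which represses neuronal genes outside the nervous system, was at 34.5 and 27.8 CPM in the lymphoma groups and 1.27 and 2.06 CPM in the neuroblastoma groups (log2 fold change 4.74 and 3.75), and its cofactor Rcor2 was higher in neuroblastomas. Between genotypes 1 gene of these lists was a DEG, the pacemaker channel Hcn3 in the lymphomas (1.38 on the log2 scale, LRT FDR 0.0185, QLF FDR 0.179), where 1.14% of all tested genes were higher DEGs.

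The 34 members that were not tested included 2, Kcnk15 and Kcnk16, without a read in any tumor. Several reached over 1 CPM in too few tumors to be tested. Scn4b, a sodium channel beta subunit, was at 11.9 CPM in EuMycC2ko215 and at most 0.707 CPM in the other 14 tumors, and Kcnj13, an inward rectifier, was at 4.10 and at most 0.334 CPM. These were picked for mention after their values were seen. Of 25 untested members with a read in a lymphoma, EuMycC2ko215 had the highest value for 6 (24.0%), and of 97 such tested members for 23 (23.7%), where it had the highest value for 25.8% of all tested genes.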

How the data were processed

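Poly(A) RNA from 15 frozen tumors was sequenced as single-end reads of 50 bases, checked with FastQC and aligned to mm10/GRCm38 with STAR. The authors deposited raw gene counts in 3 columns (both strands, first strand, second strand), and their methods use the second strand, as was done here. The libraries do not mark strand: 50.7% to 51.2% of strand-assigned reads were on the first, so about as many reads again were left unused, and genes that overlap on opposite strands can share reads. For the 101 members with at least 200 reads, 43.4% to 57.1% fell on the second strand. The 4 rows that name no gene were left out. Versions and the gene annotation are not given in the sources used here. Positions and exon lengths come from GENCODE M21 (GRCm38), with RefSeq synonyms for older symbols.

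The analysis used R 4.3.3, edgeR 4.0.16 and limma 3.58.1. The 14880 of 23329 genes above 1 CPM in 3 or more tumors were tested. Libraries were scaled by TMM, and the 15 tumors were fitted together, with 4 group means. The likelihood ratio test (LRT) was the main test because the study used it, with Benjamini-Hochberg FDR over all tested genes. The quasi-likelihood (QLF) FDR is given beside calls. A DEG had an LRT FDR under 0.05 and a log2 fold change beyond 1 in size. SE is the Wald standard error of the fitted model. CPM per kb divides TMM-scaled CPM by the union of annotated exons. Where a group had no read, the fold is a bound against 3 reads over the group. With 1 to 3 reads a ratio is given with an exact 95% interval. Alternatives were QLF, DESeq2 1.42.0, median-of-ratios size factors, no filter, filterByExpr, either-strand counts, sex as a covariate, the compared groups alone, and leaving out each tumor.

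Named genes were the first 10 and 8 members, by CPM, that were DEGs in both tumor type comparisons toward neuroblastoma and lymphoma, every DEG and the 5 (interaction: 3) smallest FDR values of the other comparisons, and a list of channels known in these tissues. Some genes that it names are not reported here. Genes named outside this rule were chosen after their values were seen. The members and all gene lists were chosen with earlier results of these data known. No pair of libraries in a group agreed within sampling noise, and p-values set differences between groups against the spread between tumors. A further EμMyc/Casp2-/- tumor of the study is not analysed here. The paper dropped it before testing as a strong outlier whose expression correlated poorly with that of its replicates.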

Additional observations from a re-analysis of the deposited data

Results flagged for a closer look

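Single values far from the rest of their group were looked for among the named genes in groups of 4 tumors whose highest value was at least 1 CPM. Of 93 such groups 6 had one, and chance gives about 1 in 20 groups. Cacna1s was at 1.49 CPM in EuMyc835, at 2.08 CPM in MYCN175 and at 2.66 CPM in MYCNC2ko118, and Scn4a at 1.30 CPM in MYCNC2ko118, where MYCN175 and MYCNC2ko118 also had the highest sums of skeletal muscle markers (235 and 436 CPM). Cacna2d3 was at 3.08 CPM in EuMyc835 and at 32.4 CPM in MYCNC2ko176.

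The genotype effect differed between the tumor types, by the interaction term of the LRT, for Cacna2d3 (-9.10), Kcna1 (-6.57), Kcnh2 (6.03) and Kcnk1 (-3.63 on the log2 scale). None of them passed the QLF test (FDR 0.0899 for Kcna1 and 0.318 for the others). The value for Kcnh2 rests on EuMycC2ko215 and that for Cacna2d3 largely on EuMyc835, as given above. Those for Kcna1 and Cacna2d3 are fitted values that depend on a null lymphoma group with no read on the strand used. With reads on either strand they were -4.05 and -6.34. The call of Kcnk1 was kept in 9 of 15 fits without 1 tumor.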

How the results depend on the processing

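No paired analysis was possible because each tumor came from a different mouse and the labels do not pair tumors across groups. Counts between the tumor types stayed within 1.5 times of those given under every alternative run, with 66 to 69 and 60 to 65 members higher in neuroblastomas and 13 to 17 and 13 to 16 higher in lymphomas when single tumors were left out. Counts between genotypes are small and moved. The QLF test left 0 members up and 0 down in the neuroblastomas, the lymphomas and the interaction. In the neuroblastomas, sex as a covariate left 1 down, and the 2 groups alone gave 3 up. In the lymphomas 4 were higher without a filter, 4 with either-strand reads, 1 with sex and 0 with the 2 groups alone, and 1 was lower in DESeq2, 1 with either-strand reads, 1 with sex and 0 with the 2 groups alone. In the interaction, either-strand reads gave 3 up and sex 0 up. Leaving out single tumors gave 1 to 2 up and 1 to 2 down in the neuroblastomas, 1 to 6 up and 1 to 3 down in the lymphomas, and 0 to 6 up and 2 to 3 down in the interaction. The fewest higher members in the lymphomas (1) and the interaction (0) came without EuMycC2ko215, and the most (6 in both) without EuMycC2ko245. The cause was not tested.

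Directions turned for Cacna1h and Cacna1s, neither of which was a DEG. Without Casp2, Cacna1h was at -0.00112 with sex as a covariate and at -1.92 to 2.18 without single tumors, and with Casp2 at -1.59 to 0.90. Cacna1s was at 1.50 with sex as a covariate and -2.67 to 2.20 without single tumors with Casp2, and at -0.11 with either-strand reads and -0.39 to 4.43 without single tumors in the null comparison. EuMycC2ko215 limits the lymphomas in depth: 3 reads there are 0.586 CPM, against 0.236 to 0.319 CPM in the other 6.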

Other observations

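Some channel genes stood out in single tumors of a type. Kcnn1, a small-conductance calcium-activated channel, was at 55.5 CPM in MYCNC2ko118 and 0.386 to 11.5 CPM in the other 7, and Cacng5 at 96.6 CPM in MYCNC2ko144 and 3.76 to 35.1 CPM in the other 7. These genes were picked after their values were seen, and no test was made.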
